A study of Homo sapiens with 9 samples.

Results

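The cytoplasmic ribosomal proteins are the protein building blocks of the ribosome that translates nuclear-encoded mRNAs. Their genes were taken from the symbols of the deposited count table: RPL or RPS followed by a number, with or without a final A, X or L, together with RPLP0, RPLP1, RPLP2 and RPSA. This gave 79 of the 16222 genes, 47 of the large and 32 of the small ribosomal subunit. All 79 had enough counts to be tested. By the same rule RefSeq lists 81 symbols, and the other 2, the paralogs RPL3L and RPL10L, were not analysed here.

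The cells were THP-1, an established human line of monocytic leukaemia origin, wild type per the labels, and their RNA was sequenced in bulk. Every group had been given PMA, the controls included, a phorbol ester after which these cells adhere and take on macrophage features. There were 3 groups of 3 libraries: PMA with LPS and ABS (LPS_ABS), PMA with LPS (LPS), and PMA with PBS, a buffer (control). LPS is bacterial lipopolysaccharide, a ligand of the receptor TLR4. The labels do not spell out ABS, although the series title names apoptotic bodies. Neither dose nor duration of any agent was available here. No label says that the libraries came from separate cultures of this 1 line, so each p-value reflects only how these samples spread, which may be technical.

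A ribosome holds 1 copy of nearly every ribosomal protein, and the P stalk proteins RPLP1 and RPLP2 are the exception, joining RPLP0 as dimers. Most ribosomal protein mRNAs begin with a C followed by a run of pyrimidines, the 5′ terminal oligopyrimidine (TOP) tract. The protein LARP1 binds this tract and holds such mRNAs back from ribosomes when the kinase mTORC1 is inactive. The amount of these mRNAs in macrophages is therefore only 1 of the inputs to ribosome production, and RNA sequencing does not measure their translation.

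The start regions of 9 members are shown because the TOP tract is the sequence these genes are known for and because their values carry the results that follow. Each is 30 bases of the RefSeq promoter table (GRCh38.p14), 10 before the annotated transcription start and 20 from it, with the pyrimidine run that opens the transcript in capitals. On the plus strand lie RPS26 (chr12:56041908-56041937), RPS3 (chr11:75399508-75399537), RPS27 (chr1:153990752-153990781) and RPL28 (chr19:55385922-55385951). On the minus strand lie RPS10 (chr6:34426050-34426079), RPS6 (chr9:19380217-19380246), RPLP0 (chr12:120201092-120201121), RPS27L (chr15:63157458-63157487) and RPL17 (chr18:49492446-49492475).
RPS3: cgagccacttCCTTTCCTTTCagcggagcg
RPS6: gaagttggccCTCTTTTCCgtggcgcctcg
RPS10: catgctccttCCTTTCCagccccggtaccg
RPS27: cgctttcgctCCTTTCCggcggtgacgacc
RPLP0: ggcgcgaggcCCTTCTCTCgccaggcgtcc
RPL28: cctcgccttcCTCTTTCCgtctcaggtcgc
RPS26: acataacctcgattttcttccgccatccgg
RPS27L: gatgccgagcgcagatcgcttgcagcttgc
RPL17: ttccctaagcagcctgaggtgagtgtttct
The first 6 open with such a run, of 7 to 11 bases, and the last 3 do not. A start was scored as TOP where an annotated first base was C and the next 4 or more bases were each C or T, read on the gene's own strand only. Of the 63 members with a start in the table, 46 (73.0%) met this, against 1404 of the 27305 genes with a start (5.14%). A gene without a match has only an annotated start that does not fall on such a run.

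Before the results, 2 features of the libraries have to be given, because both move with the values of these genes. In library LPS_ABS 3, 70 of the 79 members had their lowest level of the group, against 38.5% of all genes tested. LPS 2 was the lowest of its group in 71 members, against 35.0% of all genes. Over the members without RPL36A, the median deviation from the gene's log2 mean over the 9 libraries was -0.28 in LPS_ABS 3 and -0.11 in LPS 2. Counts in the LPS_ABS libraries also followed the GC content of the transcripts differently. A rise of 10 percentage points in GC content went with a change in log2 counts, taken against the average of the 9 libraries, that lay between 0.22 and 0.36 in LPS_ABS, between -0.30 and -0.024 in LPS and between -0.17 and -0.14 in control. The counts of calls over all 79 members in the LPS_ABS comparisons are therefore given also without LPS_ABS 3 and with an offset for GC content in the model. Total counts per library ranged from 38506162 to 41679412. All 8 monocyte and macrophage markers examined were tested, with summed FPKM (counts per length and depth) of 584 to 656 in LPS_ABS, 518 to 548 in LPS and 486 to 529 in control. Of the 2 chondrocyte markers and 1 T cell marker in the table, the summed FPKM did not pass 0.0337 in any library. Fibroblast markers summed to at most 0.351, epithelial markers to at most 1.91, B cell markers to 2.39 to 6.51 (mostly CD79B) and endothelial markers to 29.6 to 48.7 (mostly PECAM1, which monocytes also express).

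Ribosomal protein genes were among the most abundant in these cells. Their median FPKM was 834, against 5.02 for all genes tested, and 74 of the 79 averaged over 5000 counts per library. Compared per length, RPS2, at the mRNA entry side of the small subunit, came first with a mean of 5693 FPKM over the 9 libraries. Among the other high ones were RPS18 (4441 FPKM), RPL30 (3285 FPKM), RPL8 (2981 FPKM) and RPLP0 (2944 FPKM). RPS2 ran from 4739 to 7448 FPKM between its lowest and highest library, RPS18 from 3401 to 5005, RPL30 from 2541 to 3914, RPL8 from 2574 to 3644 and RPLP0 from 2401 to 3364. RPS2 was above RPS18 and RPS18 above RPL30 in all 9 libraries. RPL30 was above RPL8 in 6 of the 9 and RPL8 above RPLP0 in 4, so the last 3 do not differ beyond their spread. The 10 members with the most counts held 30.3% of all counts in these genes. FPKM rests on 1 length per gene chosen by the authors, which was 7573 bases for RPL37 and 7025 for RPL14 but 1100 at the median, and the order depends on those lengths.

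**Figure D1:**
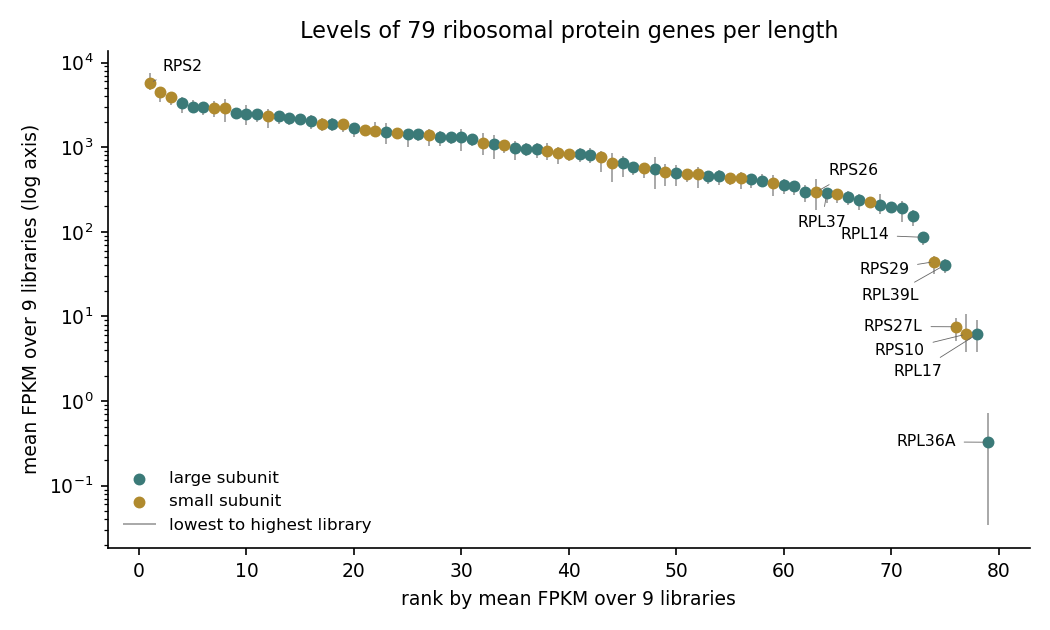
Mean FPKM of the 79 ribosomal protein genes over the 9 libraries (log axis) against their rank, with grey lines from the lowest to the highest library and colours for the subunit. Levels decline gradually down to about rank 70, and RPS27L, RPS10, RPL17 and RPL36A lie far under the rest at 7.55, 6.19, 6.18 and 0.327 FPKM.

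At the low end were RPS27L at 7.55 FPKM, RPS10 at 6.19, RPL17 at 6.18 and RPL36A at 0.327, and their library ranges overlapped apart from that of RPL36A. RPS27L is a paralog of RPS27 known as a p53 target. The other 3 encode core proteins of the ribosome. All 3 overlap a readthrough gene in RefSeq that joins them to a neighbour (RPS10-NUDT3, RPL17-C18orf32 and RPL36A-HNRNPH2), which no other member does. Reads in exons shared with such a gene can be dropped or divided in counting, so the levels of RPS10, RPL17 and RPL36A are uncertain. The part of this in their values was not tested, and the readthrough genes were not analysed here. RefSeq also lists 1966 pseudogenes of the members, 59 of them of RPS26, and how the authors' counting treated reads that match both was not given.

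The share of all counts that fell in ribosomal protein genes lay between 7.45% and 10.7%. It was 9.44%, 9.17% and 7.45% in LPS_ABS, 10.7%, 8.69% and 9.49% in LPS, and 9.66%, 9.53% and 10.1% in control. The LPS libraries spread on both sides of the controls, and every LPS_ABS library lay below every control. The means were 8.69% ± 1.08 in LPS_ABS, 9.61% ± 0.988 in LPS and 9.77% ± 0.309 in control (SD, n = 3 each). The exact permutation test, two-sided, gave p = 0.4 for LPS_ABS against LPS, p = 0.1 for LPS_ABS against control and p = 0.8 for LPS against control. With 3 libraries a group, 0.1 is the smallest p this test can give. Without LPS_ABS 3 the difference between LPS_ABS and control shrank to -0.46 percentage points from -1.08 and that between LPS_ABS and LPS to -0.31 from -0.93. When the 100 most abundant other genes were left out of the total, LPS_ABS and control overlapped, and their exact permutation p was 0.2. In bulk RNA a lower share per cell and fewer cells with a high share cannot be told apart.

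**Figure D2:**
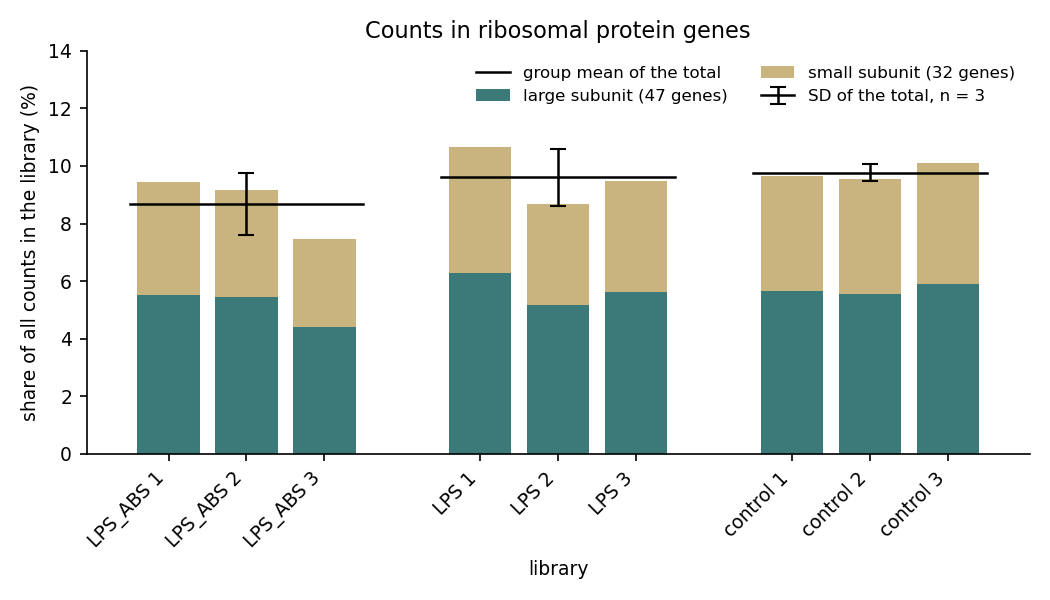
Share of all counts in each library (%) that fell in ribosomal protein genes of the large (lower bar) and small (upper bar) subunit, with the group mean of the total as a line and its SD (n = 3) as an error bar. The LPS_ABS libraries lie at 9.44%, 9.17% and 7.45%, and LPS_ABS 3 is the lowest of all 9.

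Within the ribosomal protein counts the balance of the subunits moved little. The ratio of large to small subunit counts was 1.41, 1.46 and 1.46 in LPS_ABS, 1.43, 1.47 and 1.46 in LPS, and 1.41, 1.41 and 1.40 in control. Every treated library was above every control, and the exact permutation p was 0.1 for each treated group against control, the smallest it can give. The P stalk genes RPLP0, RPLP1 and RPLP2, whose proteins recruit the elongation factors, took 7.64%, 6.996% and 6.95% of the ribosomal protein counts in LPS_ABS. They took 6.60%, 6.71% and 6.80% in LPS and 6.56%, 6.54% and 6.70% in control. LPS_ABS did not overlap with either other group (exact permutation p = 0.1 for each). Taken singly none of the 3 was called in any comparison, and their log2 fold changes ran from -0.066 to 0.18. Members at or under the members' median GC content took 36.2%, 39.3% and 38.9% of the ribosomal protein counts in LPS_ABS. They took 41.2%, 41.4% and 40.4% in LPS and 42.3%, 41.8% and 42.1% in control, so LPS_ABS was apart here too. Whether GC content accounts for the P stalk shares was not tested.

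Levels of single genes were then compared with edgeR's quasi-likelihood test over all 12970 genes tested, and a gene is said to have risen or fallen where its Benjamini-Hochberg adjusted p was under 0.05. With LPS against control, 3 members fell and 0 rose, 3.80% of the members, where 14.9% of all genes were called (7.71% higher, 7.19% lower). RPL28 was the only member with a higher level and an unadjusted p under 0.05, and 5 members had a lower level with such a p. DESeq2 and limma-voom called the same 3 and no rise. With LPS_ABS against LPS, 2 members rose and 7 fell, 11.4% of the members, where 35.6% of all genes were called (16.8% higher, 18.8% lower). With LPS_ABS against control, 1 rose and 20 fell, 26.6% of the members, where 33.8% of all genes were called (14.8% higher, 19% lower). The median log2 fold change of the members was -0.023 with LPS against control, -0.087 with LPS_ABS against LPS and -0.12 with LPS_ABS against control. The medians of all genes tested were -0.025, 0.016 and 0.050. The comparisons share libraries, so they are not independent of each other.

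The number of falls in the LPS_ABS comparisons changed with single libraries, with the GC offset and with the scaling. Without LPS_ABS 3, 2 members rose and 2 fell against LPS, where 29.2% of all genes were called. Against control 10 rose and 11 fell without it, where 35.6% of all genes were called. An offset for GC content gave 2 rises and 4 falls against LPS and 1 rise and 8 falls against control, where 9.18% and 13% of all genes were called. Of the 9 and 21 members called without the offset, 2 and 4 were also called with it. Against LPS, leaving out LPS 1 or LPS 3 gave 1 and 2 falls, where 18% and 20.7% of all genes were called. Without LPS_ABS 1, LPS_ABS 2 or LPS 2 there were 5, 8 and 9 falls against LPS (37.4%, 24.7% and 34.2% of all genes called). Leaving out control 1, control 2 or control 3 gave 3, 3 and 4 falls against LPS (28.9%, 29% and 31.2% of all genes called). It gave 5, 7 and 8 falls against control (17.9%, 19.9% and 23.2% of all genes called). Without LPS_ABS 1 or LPS_ABS 2 there were 18 and 19 falls against control (34% and 22.4% of all genes called). Without LPS 1, LPS 2 or LPS 3 there were 21, 17 and 15 (36.5%, 34.3% and 28.6% of all genes called). Scaling to total counts gave 1 rise and 18 falls against LPS and 0 and 30 against control, where 35.2% and 34.4% of all genes were called. Scaling to the ribosomal protein counts themselves gave 2 and 1 against LPS and 5 and 13 against control, where 22.1% and 24.4% of all genes were called. With LPS against control, the GC offset left the same 3 calls, where 21.1% of all genes were called.

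RPS26 stood out among the 79. It encodes a small subunit protein at the mRNA exit channel, and mutations in it cause Diamond-Blackfan anaemia. RPS26 had 409, 313 and 375 CPM (read counts scaled to library size, adjusted by TMM) in LPS_ABS, 259, 202 and 218 CPM in LPS, and 389, 395 and 464 CPM in control. The LPS libraries were the 3 lowest of the 9, without overlap, and LPS_ABS overlapped with control. RPS26 fell by 0.88 ± 0.14 on the log2 scale with LPS against control (SE, edgeR adjusted p = 0.0016), to 0.54-fold of control. It rose by 0.69 ± 0.14 with LPS_ABS against LPS (adjusted p = 0.0059 by edgeR), 1.62-fold. Its log2 fold change with LPS_ABS against control was -0.18 ± 0.14, not called (edgeR adjusted p = 0.31). Both calls held in all 23 alternatives, with edgeR or DESeq2 or limma-voom adjusted p of at most 0.0129 for LPS against control and 0.0258 for LPS_ABS against LPS. Under the GC offset its log2 fold changes were -0.84 and 0.70. As a share of ribosomal protein counts alone, RPS26 took 0.397%, 0.330% and 0.488% in LPS_ABS. It took 0.253%, 0.236% and 0.228% in LPS and 0.420%, 0.432% and 0.468% in control. The pattern was thus there without scaling to genes outside the 79.

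RPS10 showed the same direction at a far lower level. Its protein sits in the head of the small subunit and is ubiquitinated when ribosomes collide. RPS10 had 5.72, 4.79 and 5.29 CPM in LPS_ABS, 3.31, 3.11 and 3.45 CPM in LPS, and 5.23, 6.30 and 8.66 CPM in control. The LPS libraries were again the 3 lowest, and LPS_ABS overlapped with control. It fell by 1.03 ± 0.22 on the log2 scale with LPS against control (edgeR adjusted p = 0.0079), a call kept in all 23 alternatives. It rose by 0.68 ± 0.22 with LPS_ABS against LPS (edgeR adjusted p = 0.0295), kept in 15 of 23. That call was lost without LPS_ABS 1, LPS_ABS 3 (edgeR adjusted p = 0.0503) or any 1 of the LPS libraries. These are 130 to 352 counts per library, and the overlap with RPS10-NUDT3 makes them uncertain.

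RPL17, whose protein lines the exit tunnel for the growing peptide, was the third member lower with LPS. It had 5.43, 5.44 and 4.17 CPM in LPS_ABS, 6.09, 5.43 and 4.92 CPM in LPS, and 8.77, 9.13 and 8.83 CPM in control. All 6 treated libraries lay below all controls, and LPS_ABS and LPS overlapped. RPL17 fell by 0.70 ± 0.18 with LPS against control (edgeR adjusted p = 0.0209), a call kept in 18 of 23 alternatives and lost when LPS 2, LPS 3 or any control was left out. It fell by 0.83 ± 0.18 with LPS_ABS against control (edgeR adjusted p = 0.0053), and by 0.46 with the GC offset (adjusted p = 0.0909 by edgeR). Its level carries the same doubt from a readthrough gene as that of RPS10.

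**Figure D3:**
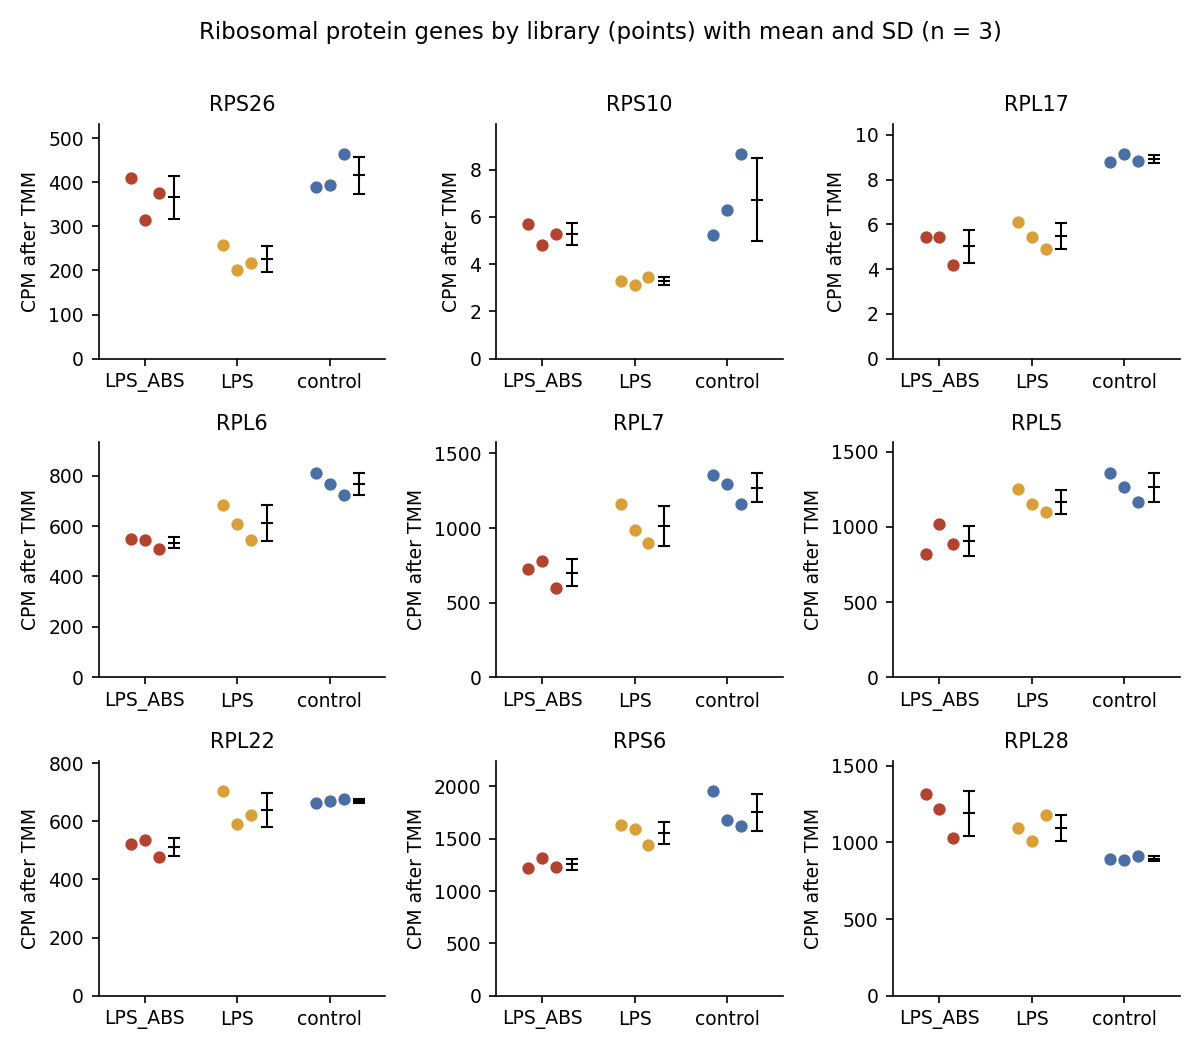
Levels of 9 ribosomal protein genes in CPM after TMM, linear axes from 0, with 1 point per library and the mean and SD (n = 3) beside each group. RPS26 and RPS10 are lowest in the LPS libraries, RPL17 is lower in all 6 treated libraries, and RPL6, RPL7, RPL5, RPL22 and RPS6 have their lowest mean in LPS_ABS.

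Among the other small subunit members, RPS6 is the classical substrate of the S6 kinases downstream of mTORC1. It had 1222, 1318 and 1229 CPM in LPS_ABS, 1636, 1590 and 1436 CPM in LPS, and 1955, 1684 and 1625 CPM in control. The LPS_ABS libraries lay below all others, and LPS and control overlapped. RPS6 fell by 0.31 ± 0.11 with LPS_ABS against LPS (edgeR adjusted p = 0.0390) and by 0.48 ± 0.11 with LPS_ABS against control (edgeR adjusted p = 0.0055). These values became 0.10 and -0.029 with the GC offset, neither called, and the call against LPS was lost whichever of the 9 libraries was left out. RPS27A, made as a fusion with ubiquitin, had 447, 538 and 401 CPM in LPS_ABS, 611, 519 and 552 CPM in LPS, and 664, 646 and 624 CPM in control. It fell by 0.48 ± 0.12 with LPS_ABS against control (edgeR adjusted p = 0.0119), and its value with the GC offset was -0.18, not called. This call was also lost without control 1. RPS3A fell by 0.52 ± 0.16 with LPS_ABS against control (edgeR adjusted p = 0.0239), lost without LPS_ABS 3 (edgeR adjusted p = 0.0508), control 1 or control 3, and with the GC offset. RPS12, RPS23, RPS24, RPS25 and RPS4X also fell with LPS_ABS against control, by 0.27 to 0.40, and each of these calls was lost without any 1 of the controls. With the GC offset RPS12 and RPS25 were still called, and RPS23, RPS24 and RPS4X were not.

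RPS3, which besides its place in the small subunit is known as a partner of the NF-kB subunit RELA, had 2724, 2478 and 1948 CPM in LPS_ABS, 2360, 1985 and 2299 CPM in LPS, and 2137, 2125 and 2349 CPM in control. The groups overlapped, and it was called in no comparison. Under the GC offset and without LPS_ABS 3 its log2 fold change was 0.48 with LPS_ABS against LPS (edgeR adjusted p = 0.0191) and 0.52 with LPS_ABS against control (edgeR adjusted p = 0.0029). With either change alone RPS3 was not called. Both changes together called 5.54% and 19.9% of all genes and also gained RPS29 in both comparisons. Against control they further gained RPL15, RPL32, RPL37, RPL37A, RPLP1 and RPS7. RPSA, also known as the laminin receptor, and the abundant small subunit members RPS2 and RPS18 were called in no comparison, with log2 fold changes from -0.13 to 0.22. For RPS2 the LPS_ABS libraries alone ran from 4630 to 7691 CPM, with LPS_ABS 1 the highest of the 9 and LPS_ABS 3 under all controls.

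In the large subunit RPL7 had the largest called fall apart from the scarce RPL36A. RPL7 had 724, 777 and 600 CPM in LPS_ABS, 1160, 985 and 898 CPM in LPS, and 1357, 1296 and 1162 CPM in control. None of the 3 groups overlapped. RPL7 fell by 0.53 ± 0.13 with LPS_ABS against LPS (edgeR adjusted p = 0.0107) and by 0.86 ± 0.13 with LPS_ABS against control (edgeR adjusted p = 0.0011). Its log2 fold change with LPS against control was -0.33 ± 0.13, not called (edgeR adjusted p = 0.11). RPL7 has the lowest GC content of the 79, 39.5%, and with the GC offset the values with LPS_ABS were 0.091 against LPS and -0.21 against control, neither called. RPL36A, near the exit site for tRNA, had 4, 1 and 2 counts in LPS_ABS, 12, 8 and 20 in LPS, and 22, 13 and 8 in control. It was called lower with LPS_ABS in both comparisons (log2 -2.30 ± 0.78 and -2.36 ± 0.78, edgeR adjusted p = 0.0374 and 0.0339), a fitted size that such counts leave imprecise, and neither call held without LPS_ABS 2, LPS_ABS 3, control 1 or control 2.

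RPL6 was the large subunit member whose fall with LPS_ABS against control depended least on the settings. It had 548, 545 and 509 CPM in LPS_ABS, 683, 609 and 543 CPM in LPS, and 812, 767 and 723 CPM in control. Treated libraries lay below all controls, while LPS_ABS and LPS overlapped. RPL6 fell by 0.52 ± 0.11 with LPS_ABS against control (edgeR adjusted p = 0.0050), called in all 23 alternatives with an adjusted p of at most 0.0393, and by 0.45 with the GC offset. With LPS against control its log2 fold change was -0.33 ± 0.11, not called (edgeR adjusted p = 0.0676), and it was called in 4 of the 23 alternatives, among them those without LPS_ABS 3 and without LPS 1.

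RPL5 and RPL11 assemble with 5S rRNA and, when ribosome assembly is disturbed, bind MDM2 and thereby stabilize p53. RPL5 had 821, 1017 and 885 CPM in LPS_ABS, 1255, 1150 and 1099 CPM in LPS, and 1360, 1267 and 1168 CPM in control. It was lower in LPS_ABS than in every other library. RPL5 fell by 0.36 ± 0.11 with LPS_ABS against LPS (edgeR adjusted p = 0.0268) and by 0.48 ± 0.11 with LPS_ABS against control (edgeR adjusted p = 0.0080), and neither was called with the GC offset (-0.24 and -0.32). The call against LPS was also lost without LPS_ABS 1 or LPS 1. RPL11 had 731, 848 and 788 CPM in LPS_ABS, 885, 799 and 831 CPM in LPS, and 966, 896 and 838 CPM in control, and was called in no comparison. RPL22, RPL31 and RPL14 fell with LPS_ABS against LPS by 0.32, 0.41 and 0.29, and none of these calls held without LPS_ABS 3, LPS 1 or LPS 3 or with the GC offset. RPL22 and RPL14 fell with LPS_ABS against control too, as did RPL21, RPL23, RPL24 and RPL26, and each of these 6 calls was lost without control 1 or control 2. Of the 6 only RPL24 was called with the GC offset.

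RPL28 was the only member to rise against control. Its protein has no counterpart in the ribosome of baker's yeast. RPL28 had 1316, 1219 and 1031 CPM in LPS_ABS, 1096, 1008 and 1177 CPM in LPS, and 890, 884 and 910 CPM in control. All treated libraries were above all controls, and LPS_ABS and LPS overlapped. It rose by 0.41 ± 0.11 with LPS_ABS against control (edgeR adjusted p = 0.0160), and its value with the GC offset was 0.12, not called. The call was lost without control 1 or control 2. Its log2 fold change with LPS against control was 0.29 ± 0.11, not called (edgeR adjusted p = 0.10). RPL13A, which leaves the ribosome of interferon-treated monocytes to join the GAIT complex that silences inflammatory mRNAs, had 3337, 2988 and 2273 CPM in LPS_ABS, 3041, 2647 and 2950 CPM in LPS, and 2478, 2413 and 2687 CPM in control. The groups overlapped, and RPL13A was not called in the 9 libraries. Without LPS_ABS 3 it was called higher than control (log2 0.32, edgeR adjusted p = 0.0246), together with RPL13, RPL18, RPL36, RPL8, RPLP1, RPLP2, RPS16 and RPS9.

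Of the paralogs, RPS27L had 39.3, 43.8 and 32.01 CPM in LPS_ABS, 51.1, 38.7 and 45.1 CPM in LPS, and 55.4, 54.99 and 52.1 CPM in control. It lay below control in all treated libraries and fell by 0.50 ± 0.15 with LPS_ABS against control (edgeR adjusted p = 0.0237), a call lost without LPS_ABS 3, without any 1 of the controls and with the GC offset. Per 100 RPS27 counts it had 2.73, 3.35 and 3.26 counts in LPS_ABS, 3.06, 2.92 and 2.92 in LPS, and 4.49, 4.37 and 3.44 in control. That ratio was lower in every treated library than in every control (exact permutation p = 0.1 for each treated group, the smallest it can give). RPL39L, a paralog best known from male germ cells, gave 6.19, 7.61 and 6.77 counts per 100 RPL39 counts in LPS_ABS, 5.26, 5.49 and 4.85 in LPS, and 5.73, 5.40 and 5.66 in control. This ratio was higher in LPS_ABS than in all other libraries (exact permutation p = 0.1 against each group), while neither RPL39L nor RPL39 was called in any comparison. RPS27, RPL3 and RPL10 were not called either, with log2 fold changes from -0.28 to 0.18.

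The size of the changes followed the GC content of the transcripts, which among the members runs from 39.5% to 66.2%. With LPS_ABS against LPS the median log2 fold change was -0.22 for the 18 members of at most 45% GC, -0.097 for 25 members of 45% to 50%, -0.081 for 16 of 50% to 55% and 0.12 for 20 above 55%. All genes tested in the same ranges had medians of -0.53, -0.031, 0.22 and 0.40. With LPS_ABS against control the members' medians were -0.31, -0.19, -0.10 and 0.18, and those of all genes -0.55, -0.054, 0.23 and 0.39. The medians of the members spanned a narrower range than those of all genes, a difference that was not tested. Of the 20 falls against control, 17 were in members of at most 50% GC, and 0 of the 20 members above 55% fell, while 1 of them rose. Over all genes tested 19% fell and 14.8% rose with LPS_ABS against control, and these calls were not split by GC content. Spearman's rho between log2 fold change and GC content over the 79 members, as a description, was 0.64 with LPS_ABS against LPS and 0.68 with LPS_ABS against control, and 0.69 in both over 12923 genes with a GC value. After the offset fitted on all genes it was -0.76 and -0.40 over the members, so the offset leaves these genes with a trend of opposite sign. With LPS against control rho was 0.42 over the members and 0.012 over all genes. These points share libraries, and whether the trend arose in the cells or in library making was not tested.

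**Figure D4:**
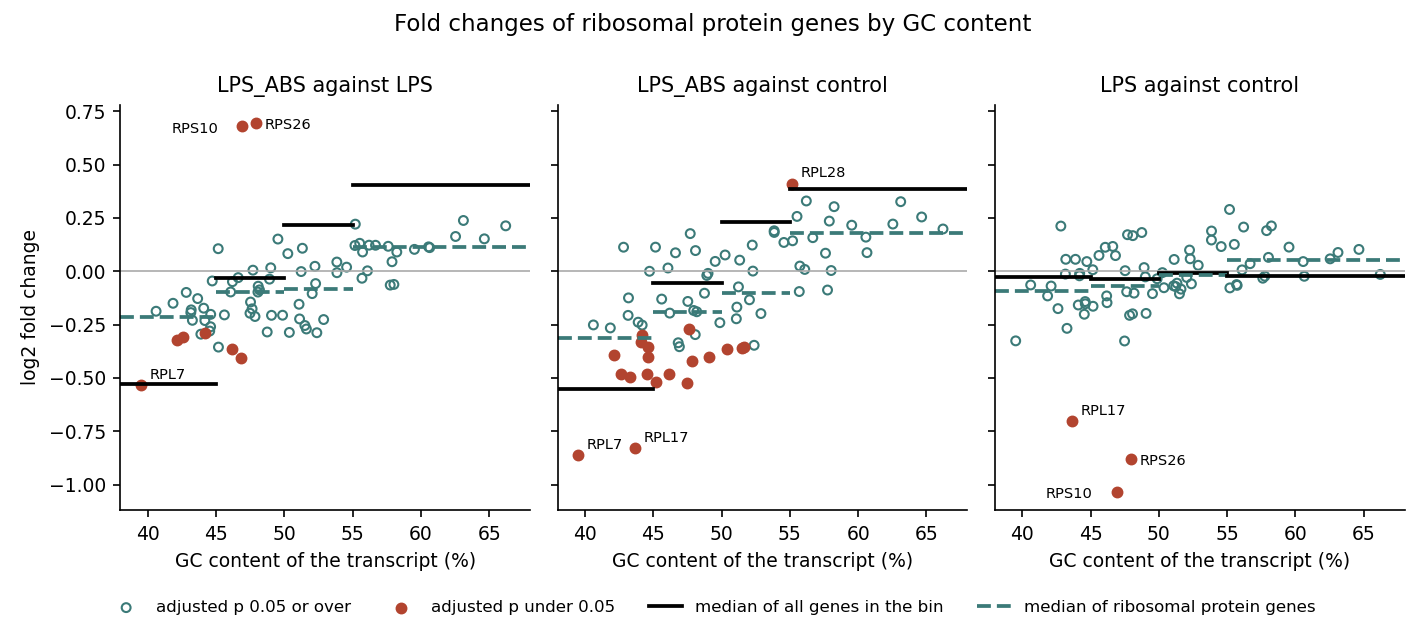
Log2 fold change of 78 ribosomal protein genes (RPL36A at under 23 counts per library is left out) against the GC content of the transcript (%), filled where the edgeR adjusted p was under 0.05, for the 3 comparisons. Black lines are medians of all genes tested in 4 GC ranges and dashed lines those of the members. RPS26, RPS10 and RPL17 lie away from the members of like GC content in the panel of LPS against control.

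Many of the 79 genes ranked the libraries of a group alike, most clearly in LPS. The 3 LPS libraries held a clear order, with 68 members highest in LPS 1 and 71 lowest in LPS 2. In control, 60 members were highest in control 3, while 21 were lowest in control 1, 45 in control 2 and 13 in control 3. In LPS_ABS, 46 were highest in LPS_ABS 1, 33 in LPS_ABS 2 and 0 in LPS_ABS 3. Of all genes tested, 29.4%, 29.4% and 41.1% were lowest in control 1, control 2 and control 3. No share of all genes highest in a library is given here to set beside the members. The median coefficient of variation within a group was 15.4% in LPS_ABS, 9.65% in LPS and 6.64% in control for the members, and 18.6%, 12.6% and 8.99% for all genes tested. The groups of 3 libraries did not overlap in 12 members with LPS_ABS against LPS, 28 with LPS_ABS against control and 11 with LPS against control. Of all genes tested the shares were 46.2%, 50% and 42.6%.

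**Figure D5:**
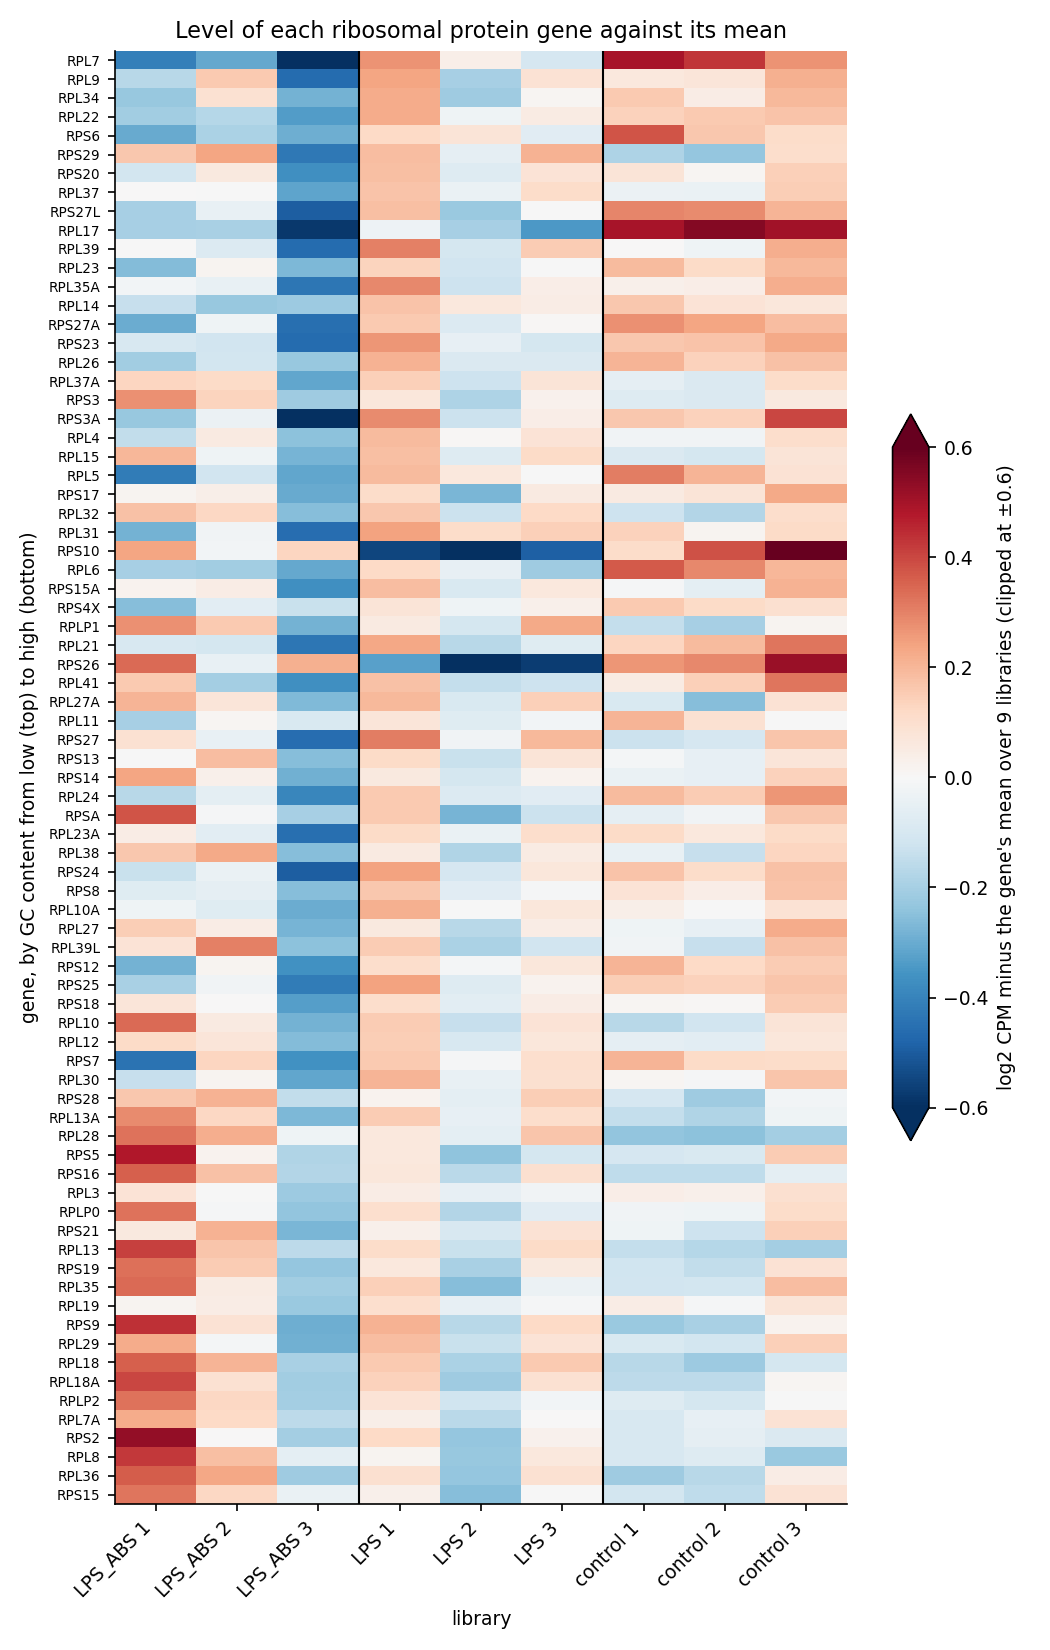
Log2 CPM of 77 ribosomal protein genes (rows, by GC content from low at the top to high at the bottom; RPL36A and 1 other left out) minus the gene's mean over the 9 libraries (columns), red above and blue below the mean, clipped at 0.6 either way. LPS_ABS 3 is blue in nearly every row, LPS_ABS 1 changes from blue in rows of low GC content to red in rows of high GC content, and RPS26 and RPS10 are blue in the 3 LPS libraries.

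Members were then described by their annotated start. Of the 46 with a TOP start, 0 rose and 1 fell with LPS against control, 1 rose and 5 fell with LPS_ABS against LPS, and 1 rose and 13 fell with LPS_ABS against control. Of the 17 with a start but no TOP, the counts were 0 and 2, 1 and 0, and 0 and 4. In the same order, 14.9%, 35.6% and 33.8% of all genes were called. Median log2 fold changes were -0.016, -0.060 and -0.015 with a TOP start and -0.059, -0.099 and -0.13 without one. The GC offset moved them to 0.025, -0.19 and -0.12 with a TOP start and -0.034, -0.15 and -0.20 without one, which turned the order of the classes with LPS_ABS against LPS. RPS26, shown above without a run at its annotated start, and RPS10, shown with one, had the same direction in every comparison. No test of the difference between the classes was made.

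Other mRNAs known to carry a TOP tract were read for the same comparisons. Of 20 examined, 1 rose and 1 fell with LPS against control, 1 rose and 10 fell with LPS_ABS against LPS, and 4 rose and 8 fell with LPS_ABS against control. The shares of all genes called were 14.9%, 35.6% and 33.8%. RACK1, a protein bound to the small subunit, had 2225, 1894 and 1571 CPM in LPS_ABS, 1950, 1920 and 2034 CPM in LPS, and 1426, 1399 and 1322 CPM in control, all treated libraries above all controls. It rose by 0.51 ± 0.12 with LPS against control (edgeR adjusted p = 0.0150), a call lost without LPS 3 or any 1 of the controls. VIM, vimentin of the cytoskeleton, fell by 0.96 ± 0.16 with LPS against control and rose by 1.28 ± 0.16 with LPS_ABS against LPS (edgeR adjusted p = 0.0022 and 0.0024). FAU, which encodes a ribosomal protein as a fusion with a ubiquitin-like protein, was called in no comparison, with log2 fold changes from -0.094 to 0.25. EEF1A1, the main elongation factor that delivers aminoacyl-tRNA, fell by 0.45 ± 0.08 with LPS_ABS against LPS (edgeR adjusted p = 0.0050), and by 0.31 with the GC offset, not called. Under that offset 2 of the 20 rose and 1 fell in both LPS_ABS comparisons, where 9.18% and 13% of all genes were called.

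Of 25 translation initiation factors, 1 rose and 3 fell with LPS against control, 4 rose and 8 fell with LPS_ABS against LPS, and 1 rose and 9 fell with LPS_ABS against control. Calls over all genes made up 14.9%, 35.6% and 33.8%. EIF5, which prompts GTP hydrolysis at the start codon, had 58.4, 41.96 and 49.95 CPM in LPS_ABS, 74.5, 61.8 and 64.2 CPM in LPS, and 162, 157 and 142 CPM in control, with no overlap between any groups. EIF5 fell by 1.202 ± 0.14 with LPS against control and by 1.62 ± 0.14 with LPS_ABS against control (edgeR adjusted p = 0.000314 and 0.000112). EIF1, which guards the choice of start codon, had 833, 1000.0 and 549 CPM in LPS_ABS, 751, 756 and 797 CPM in LPS, and 368, 359 and 380 CPM in control. EIF1 rose by 1.06 ± 0.17 with LPS against control (edgeR adjusted p = 0.0019). Under the GC offset 0 of the 25 rose and 1 fell with LPS_ABS against LPS, where 9.18% of all genes were called.

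Among 16 genes of mTORC1 and translation control, 4 rose and 0 fell with LPS against control by edgeR, which called 14.9% of all genes. By edgeR 1 more had a lower level at an unadjusted p under 0.05, and DESeq2 called 1 fall (AKT1S1). MLST8, a subunit of the mTOR complexes, had 429, 359 and 157 CPM in LPS_ABS, 282, 313 and 330 CPM in LPS, and 83.1, 81.6 and 67.0 CPM in control. It rose by 1.996 ± 0.28 with LPS against control (edgeR adjusted p = 0.000748). EIF4EBP1, the repressor of cap binding that mTORC1 inactivates, rose by 1.63 ± 0.23, and PDCD4, an inhibitor of the helicase EIF4A, rose by 0.78 ± 0.13 (edgeR adjusted p = 0.000811 and 0.0018). With LPS_ABS against LPS 6 rose and 3 fell, where 35.6% of all genes were called. RPS6KB1, an S6 kinase that phosphorylates RPS6, fell by 0.87 ± 0.17, LARP1 rose by 0.53 ± 0.16 and RPTOR, the subunit that defines mTORC1, rose by 0.90 ± 0.22 (edgeR adjusted p = 0.0059, 0.0261 and 0.0102). The call of LARP1 was lost without LPS_ABS 2, LPS_ABS 3, LPS 1 or LPS 3. None of these 3 was called with the GC offset, under which 1 of the 16 rose and 1 fell. That offset called 9.18% of all genes with LPS_ABS against LPS.

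Of 10 chaperones and assembly factors dedicated to ribosomal proteins, 0 rose and 4 fell with LPS against control (14.9% of all genes called). DESeq2 and limma-voom gave the same counts, and no other member of the list had a higher level at an unadjusted p under 0.05. BCCIP, whose counterpart in baker's yeast is a chaperone of Rpl23, had 20.6, 17.6 and 20.9 CPM in LPS_ABS, 20.6, 20.3 and 20.7 CPM in LPS, and 44.3, 40.5 and 33.0 CPM in control. It fell by 0.94 ± 0.14 with LPS against control (edgeR adjusted p = 0.0014). GRWD1, whose counterpart in baker's yeast is a chaperone of Rpl3, had 72.8, 56.6 and 89.3 CPM in LPS_ABS, 37.1, 41.7 and 49.0 CPM in LPS, and 73.8, 76.1 and 79.2 CPM in control. The LPS libraries were the 3 lowest, and GRWD1 fell by 0.84 ± 0.17 with LPS against control and rose by 0.78 ± 0.17 with LPS_ABS against LPS (edgeR adjusted p = 0.0060 and 0.0071). HEATR3 and LTV1 fell with LPS against control too, by 0.62 and 0.58, the first lost without LPS 3, control 2 or control 3 and the second without LPS 2, LPS 3, control 1 or control 2. The rise of GRWD1 was not called with the GC offset (log2 0.37). TSR2, which carries the RPS26 protein to the assembling subunit, had 44.2, 42.9 and 42.3 CPM in LPS_ABS, 36.2, 37.05 and 36.8 CPM in LPS, and 42.7, 41.4 and 42.1 CPM in control. The LPS libraries were the 3 lowest for TSR2 as well, but its log2 fold change with LPS against control was -0.20 ± 0.11, not called (edgeR adjusted p = 0.27).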

How the data were processed

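RNA was extracted with TRIzol from THP-1 cells, and the labels' protocols name 2 library kits, TruSeq Stranded mRNA LT and VAHTS Universal V5, without saying which was used for which library. The submitters' processing notes name fastp, HISAT2, HTSeq, R 3.2.0 and DESeq2. Genome build, annotation and strand setting are not given in the sources used here. The deposited table holds raw counts per gene and FPKM values computed by the authors, 9 libraries each. Counts were tested with edgeR 4.0.16 (TMM, filterByExpr, quasi-likelihood F test, 3 group means over 9 libraries, 6 residual degrees of freedom) in R 4.3.3, with Benjamini-Hochberg adjustment over 12970 genes, which hold 99.985% of counts. DESeq2 1.42.0 and limma 3.58.1 were alternatives. Shares and ratios were compared with two-sided exact permutation tests in Python 3.11.15. GC content was that of the longest protein-coding GENCODE transcript of a gene, found for 16090 genes (99.2%). The GC offset was a lowess curve of each library's log2 counts on it. Tested on simulated data, edgeR without an offset, for LPS_ABS against LPS, recovered 88% of 2-fold changes over 12853 genes with no GC trend. With a GC trend put into LPS_ABS it made 3061 false calls over 12850 genes, against 8 with the GC offset. That trend was put into all genes alike, the form the offset removes, so the simulation does not show how the offset acts on the members. Members and gene lists were chosen with earlier results of these data known. Named in full were, per comparison, up to 6 called members with the largest rise and 6 with the largest fall, the 4 with the smallest p where under 4 were called, the 6 highest and 4 lowest by FPKM, landmarks by role, and up to 4 genes of each other list with the smallest adjusted p, with RACK1 and FAU; 2 genes under this rule are not reported here. LARP1, TSR2 and the other called members were named after their values were seen. Replicate numbers were not used to pair libraries, since same-numbered libraries deviated together weakly or not at all (correlations from -0.035 to 0.203). No 2 libraries agreed within sampling noise.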

Additional observations from a re-analysis of the deposited data

How the results depend on the processing

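Of 1884 single-gene values under alternatives, 1718 kept call and direction or were called neither with nor without the alternative. Where neither was called, direction was not compared. Of the rest, 116 lost the call, 36 gained a call and 14, called with or without the alternative, turned round. The cause was not tested. With LPS_ABS against LPS, RPL22 had log2 0.13 with the GC offset, 0.16 with GC and length offsets and 0.16 with the GC offset without LPS_ABS 3, RPL7 had 0.091, 0.15 and 0.11, and RPS6 0.10, 0.18 and 0.12. With LPS_ABS against control, RPS27L had 0.033 (GC offset without LPS_ABS 3) and RPS6 0.014 (GC and length offsets). With the replicate number as a block, 4 members fell with LPS_ABS against LPS; block and GC offset together gave 0 rises and 8 falls with LPS_ABS against control, and log2 0.12 for RPL22, 0.086 for RPL7 and 0.10 for RPS6 with LPS_ABS against LPS. Correlations of same-numbered libraries ran from -0.035 to 0.203, and those of other libraries of different groups from -0.204 to 0.172.

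Member counts with LPS against control were 1 higher and 5 lower in a fit of only those groups, and 1 higher with the GC offset without LPS_ABS 3. With LPS_ABS against LPS they were 1 higher and 18 lower by total counts, 4 lower with the GC offset, 20 lower with the length offset, 1 lower scaled to ribosomal protein counts, 4 higher with GC and length offsets, 1 higher and 1 lower in a fit of only those groups, and 0 lower with the GC offset without LPS_ABS 3 (12 lower at an unadjusted p under 0.05 with all libraries, 6 called by DESeq2). With LPS_ABS against control they were 0 higher by total counts, 3 higher with the length offset, 8 lower with the GC offset, 5 higher and 13 lower scaled to ribosomal protein counts, 0 higher and 9 lower with GC and length offsets, and 7 higher and 4 lower with the GC offset without LPS_ABS 3. Of all genes, the length offset called 37% with LPS_ABS against LPS and 36.8% with LPS_ABS against control, GC and length offsets 12.7% and 15.3%, the GC offset without LPS_ABS 3 5.54% and 19.9% (27.5% with LPS against control), the block 37.3% and 35.3%, and block with GC offset 10.9% and 13.6%. A fit of only the groups compared called 25.4% with LPS against control and 23.8% with LPS_ABS against LPS. Total counts moved the median log2 of all genes to -0.085 with LPS_ABS against LPS and to -0.077 with LPS_ABS against control.

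Leaving out 1 library gave, with LPS against control, 0 to 1 higher and 2 to 4 lower, with LPS_ABS against LPS 1 to 2 higher and 1 to 9 lower, and with LPS_ABS against control 0 to 10 higher and 5 to 21 lower. In the same fits and order, 6.64% to 20.6%, 18% to 37.4% and 17.9% to 36.5% of all genes were called. The differences in share ran from -0.68 to 0.30, -1.39 to -0.31 and -1.46 to -0.46 percentage points, and of summed FPKM the last was -2.28. Called list members, in the same order, ran from 1 to 4, 3 to 10 and 5 to 12 (other TOP mRNAs), 2 to 9, 7 to 13 and 8 to 13 (initiation factors), 3 to 6, 5 to 9 and 3 to 7 (mTORC1), and 2 to 4, 1 to 4 and 2 (chaperones). With the GC offset they were 3 and 3 (other TOP mRNAs), 1 and 5 (initiation factors), 2 (mTORC1) and 1 (chaperones) in the LPS_ABS comparisons. With the GC offset without LPS_ABS 3 they were 4, 3 and 6 for other TOP mRNAs, 11 and 1 for initiation factors, 1 for mTORC1 and 2 and 4 for chaperones.

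Depth did not limit most members, of which 74 averaged over 5000 counts; RPL36A, RPS10, RPL17, RPL39L and RPS27L are the other 5. With 3 libraries a group the exact test of a share cannot go below 0.1.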

Other observations

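The ribosome of mitochondria is built from a separate set of nuclear genes. Of 78 such genes 77 were tested, and together they took 0.497%, 0.484% and 0.461% of counts in LPS_ABS, 0.504%, 0.429% and 0.460% in LPS and 0.530%, 0.527% and 0.530% in control, all treated libraries below all controls (exact permutation p = 0.1 for each treated group, the smallest it can give). By edgeR 0 rose and 15 fell with LPS against control, where 4 had a higher level at an unadjusted p under 0.05. With LPS_ABS against LPS 14 rose and 6 fell, and with LPS_ABS against control 4 rose and 18 fell. Of all genes tested, 14.9% were called with LPS against control, 35.6% with LPS_ABS against LPS and 33.8% with LPS_ABS against control. Under the GC offset the mitochondrial counts were 0 and 14, 7 and 2, and 1 and 6, where 21.1%, 9.18% and 13% of all genes were called.

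Of 3 ribosomal protein paralogs whose symbols fall outside the rule, RPL36AL fell by 0.49 with LPS_ABS against LPS and by 0.62 with LPS_ABS against control, and RPL22L1 fell by 0.72 with LPS_ABS against control (edgeR adjusted p = 0.0225, 0.0075 and 0.0132). None of the 3 was called with the GC offset. Per 100 counts of RPL22, RPL22L1 had 1.22, 1.68 and 1.39 counts in LPS_ABS, 1.44, 1.24 and 1.38 in LPS, and 1.81, 1.69 and 1.89 in control, lower in all treated libraries than in the controls (exact permutation p = 0.1 for each treated group).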
